A study of Homo sapiens with 6 samples.

Results

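The genes of polyamine metabolism were examined after teriflunomide treatment of IMR32 cells, an established neuroblastoma line of human origin that carries amplified MYCN. The set held 10 genes: ODC1, AMD1, SRM and SMS of synthesis, OAZ1, OAZ2 and AZIN1 of the antizyme system, and SAT1, PAOX and SMOX of breakdown. Every probe set whose only gene symbol was 1 of these was taken, which gave 22 of the 54675 probe sets on the HG-U133 Plus 2.0 array. Cells of the first group received 118 µM teriflunomide for 24 h, and cells of the control group 0.1% DMSO for the same time, both starting 12 h after seeding. Teriflunomide inhibits dihydroorotate dehydrogenase, an enzyme of pyrimidine synthesis. The labels do not say if DMSO was also present with teriflunomide. Each group had 3 arrays described as biological replicates; nothing says that they came from separate cultures, so the p-values reflect array-to-array spread alone, and that may be technical.

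The polyamines putrescine, spermidine and spermine are small positively charged molecules that bind nucleic acids and are needed for growth. Ornithine decarboxylase (ODC1) makes putrescine, S-adenosylmethionine decarboxylase (AMD1) supplies the aminopropyl donor, and spermidine synthase (SRM) and spermine synthase (SMS) add aminopropyl groups. Antizymes (OAZ1, OAZ2) bind ornithine decarboxylase and target it to the proteasome, and the antizyme inhibitor (AZIN1) sequesters antizyme. SAT1 acetylates spermidine and spermine, PAOX oxidises the acetylated forms and SMOX oxidises spermine directly. In neuroblastoma the pathway is known for its link to MYCN, which activates several of these genes, ODC1 among them.

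The promoters of ODC1, AMD1, SRM and SAT1 are shown because these genes give the clearest changes of the synthesis and breakdown arms described next. Each is the 250 bases before an annotated start in RefSeq (GRCh38.p14), 5′ to 3′ on the gene's strand. ODC1 lies at chr2:10448328-10448577 on the minus strand, AMD1 at chr6:110874535-110874784 on the plus strand, SRM at chr1:11060019-11060268 on the minus strand and SAT1 at chrX:23782923-23783172 on the plus strand. Capitals mark matches, on either strand, to the E-box CACGTG bound by MYC proteins, to TATAA and to the GC box GGGCGG.
ODC1: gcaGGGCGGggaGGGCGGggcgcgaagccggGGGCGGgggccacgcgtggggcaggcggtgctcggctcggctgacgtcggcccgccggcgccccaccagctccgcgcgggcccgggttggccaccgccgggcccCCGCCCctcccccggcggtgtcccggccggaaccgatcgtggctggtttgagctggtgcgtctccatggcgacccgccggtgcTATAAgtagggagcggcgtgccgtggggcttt
AMD1: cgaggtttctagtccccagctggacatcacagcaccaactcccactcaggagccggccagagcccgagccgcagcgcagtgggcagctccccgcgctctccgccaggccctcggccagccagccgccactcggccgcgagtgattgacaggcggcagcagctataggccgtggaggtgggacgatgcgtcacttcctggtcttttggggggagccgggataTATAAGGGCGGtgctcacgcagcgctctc
SRM: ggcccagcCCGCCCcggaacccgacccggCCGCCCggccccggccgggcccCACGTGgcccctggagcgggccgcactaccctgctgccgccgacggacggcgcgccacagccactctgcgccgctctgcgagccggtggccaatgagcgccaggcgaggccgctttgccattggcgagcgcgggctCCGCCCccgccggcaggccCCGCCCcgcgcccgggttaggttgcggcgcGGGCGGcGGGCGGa
SAT1: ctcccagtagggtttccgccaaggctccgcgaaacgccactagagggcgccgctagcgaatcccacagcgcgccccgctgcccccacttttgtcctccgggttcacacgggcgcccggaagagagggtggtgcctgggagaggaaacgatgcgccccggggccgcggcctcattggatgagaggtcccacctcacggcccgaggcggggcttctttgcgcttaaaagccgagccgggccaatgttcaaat

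Of the 10 members, 7 had promoter windows used here, 10 windows in all, since ODC1 and AMD1 have several annotated starts. No window of AZIN1, PAOX or SMOX was used, so the motif counts do not cover those genes. An E-box occurred in 2 of the 10 windows, against 6.34% of 35116 promoter windows of the same length. It lay 199 to 194 bases before the SRM start and 29 to 24 bases before a further ODC1 start, not in the ODC1 window printed. TATAA occurred in 3 of the 10 windows (2 of the 7 members), against 18.9% of all windows. It lay 32 to 28 bases before the printed ODC1 start and 29 to 25 bases before the printed AMD1 start. The GC box occurred in 9 of the 10 windows, all but that of SAT1, against 42.6% of all windows. The members' windows held 66.4% to 82.4% G and C, and none of these comparisons was matched for base content. The AMD1 windows include a pair that differ by a single base in position. Searches for TGATGNAA, a core of ATF4-type elements, and for TGACNNNGC, a core of antioxidant response elements, on both strands found 0 matches in the members' windows, against 3.14% and 10.9% of all windows. No motif searched overlapped another in the sequences shown. A match is only a match of letters, and none was tied to binding here.

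All values are log2 intensities as the authors deposited them, made with GCRMA. Probe sets entered the test when 3 or more of the 6 arrays read at least their own median, which 27290 did. The brightest probe set stood for each gene, which gave 11998 genes tested with limma. The lowest value of every array was 2.18, where 33.9% to 34.3% of its probe sets lay. With teriflunomide, 58.6% of genes passed an adjusted p of 0.05, 29.7% higher and 28.9% lower. Levels of different probe sets are not comparable with each other, so only differences between groups are set side by side. The values come from whole cultures, in which fewer cells of a kind and less RNA per cell cannot be told apart. Of 7 adrenergic neuroblastoma markers with a probe set, 5 exceeded log2 5, while the catecholamine enzyme genes TH and DBH did not. Among 8 markers of blood, endothelial, epithelial and fibroblast cells, COL1A1 alone exceeded log2 5, and its partner COL1A2 stayed at 2.18. COL1A1 averaged 11.75 with teriflunomide and 10.81 with DMSO, and its part in the results that follow was not tested.

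Teriflunomide-treated cells had less mRNA for the aminopropyl steps of synthesis and more for SAT1 and for ODC1. Of the 10 members, 7 passed the limma test over all genes, 3 higher (SAT1, ODC1, OAZ1) and 4 lower (SRM, AMD1, AZIN1, SMS). That is beside the 58.6% of all genes that passed, so the number called is no mark of the set. For 9 of the 10 members no teriflunomide array overlapped a DMSO array, against 67% of all genes. The 9 include OAZ2 and SMOX, which were not called and whose nearest arrays almost met. These read 10.866 with teriflunomide and 10.871 with DMSO for OAZ2, and 6.203 and 6.199 for SMOX. The median log2 fold change was -0.056 over the members and 0.0015 over all genes tested. Only SAT1 changed at least 2-fold on the probe set that stood for its gene, and 9.77% of all genes were called and changed that much.

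**Figure D1:**
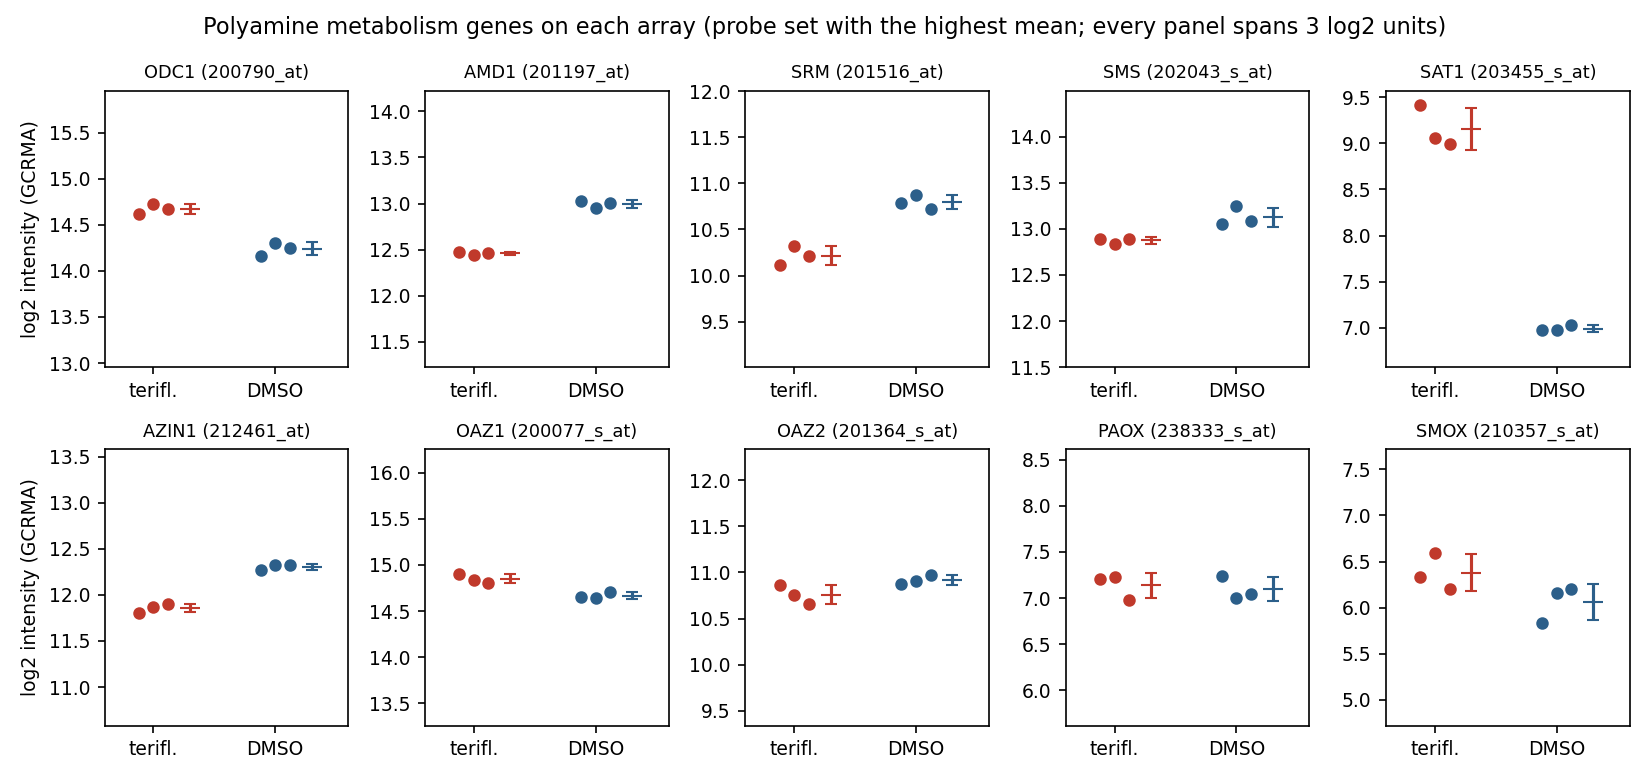
Log2 intensity (vertical axis) of the probe set that stood for each gene on the 3 teriflunomide arrays (red, left) and the 3 DMSO arrays (blue, right), with group mean and SD beside the points; every panel spans the same number of log2 units. SAT1 shows the widest gap between the groups, with a mean of 9.15 for teriflunomide against 6.99 for DMSO, and the PAOX points overlap.

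In the synthesis arm, ODC1 was the only member that rose. Its single probe set, 200790_at, read 14.61, 14.73 and 14.67 on the teriflunomide arrays, against 14.17, 14.30 and 14.25 on the DMSO arrays. Every teriflunomide array lay above every DMSO array. The log2 fold change reached 0.43 (SE 0.05, limma adjusted p = 0.00112), a 1.35-fold rise, and 18.4% of all genes rose as much or more. MYCN, by contrast, averaged 14.69 ± 0.08 with teriflunomide and 15.11 ± 0.02 with DMSO (SD, n = 3 each), a log2 fold change of -0.43 (SE 0.05, limma adjusted p = 0.000841). The other tested MYCN probe sets, with means of 4.52 and 2.71, stood at -0.46 and -0.026 and did not pass (limma adjusted p = 0.101 and 0.676). ODC1 and MYCN, the latter on its brightest probe set, thus differed between the groups in opposite directions and by similar amounts. Of the other called members, AMD1, SRM, SMS and AZIN1 fell as MYCN did, and SAT1 and OAZ1 rose. Over all genes tested, 28.9% were called lower and 29.7% higher, so sharing MYCN's direction is no mark of these members. A part of MYCN in these differences was not tested.

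AMD1, which decarboxylates S-adenosylmethionine, fell on both of its probe sets, by unequal amounts. The brighter, 201197_at, read 12.47, 12.44 and 12.46 with teriflunomide, against 13.03, 12.95 and 13.00 with DMSO. The other, 201196_s_at, read 8.49, 8.65 and 8.69 with teriflunomide, against 10.10, 10.16 and 10.03 with DMSO. The groups were separate on both. The gene's log2 fold change on the brighter probe set was -0.53 (SE 0.03, limma adjusted p = 0.000127), and on the other it was -1.49 (SE 0.07, adjusted p = 9.42e-05 over the 27290 probe sets). Their gap of 0.95 did not overlap between the groups' arrays (exact two-sided permutation p = 0.1, the smallest that 3 against 3 allows, and 0.157 adjusted over 11 such pairs). The size of the AMD1 fall therefore depended on the probe set, and the mean of both gave -1.01.

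SRM, which makes spermidine, read 10.12, 10.32 and 10.22 on the teriflunomide arrays, against 10.79, 10.88 and 10.72 on the DMSO arrays. All treated arrays were lower, with a log2 fold change of -0.58 (SE 0.07, limma adjusted p = 0.000967), and 12.1% of all genes fell as much or more. SMS, which makes spermine, changed less. It read 12.89, 12.83 and 12.89 with teriflunomide, against 13.05, 13.24 and 13.08 with DMSO. The groups did not overlap, and the log2 fold change reached -0.25 (SE 0.06, limma adjusted p = 0.0149). Without teriflunomide replicate 2 the SMS value was -0.23 and its call in the gene test was lost (adjusted p = 0.0516). In the probe set test its only probe set, 202043_s_at, lost its call in more settings. These were no filter (limma adjusted p = 0.0605), replicate number as a block (0.0667) and omission of any of the teriflunomide arrays (0.0517 to 0.0673).

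The antizyme system moved by small amounts, apart from AZIN1. OAZ1, the main antizyme, rose on both of its probe sets on the deposited scale. The one that stood for the gene, 200077_s_at, read 14.90, 14.84 and 14.81 with teriflunomide, against 14.65, 14.64 and 14.71 with DMSO. These groups did not overlap, although the nearest arrays were close. The log2 fold change reached 0.18 (SE 0.04, limma adjusted p = 0.00983), and the other probe set gave 0.28 (SE 0.03, adjusted p = 0.00125 over all probe sets). With the arrays centred on poly-A spikes, which lowered every log2 fold change by 0.08, OAZ1 stood at 0.10 and was no longer called (adjusted p = 0.354), nor was its other probe set, at 0.20 (adjusted p = 0.0914).

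OAZ2, the other antizyme gene of the set, had probe sets with log2 fold changes of opposite sign, so its direction is not settled. On 201364_s_at it read 10.87, 10.76 and 10.66 with teriflunomide, against 10.87, 10.91 and 10.97 with DMSO. This probe set was lower with treatment but did not pass, at -0.16 (95% confidence interval -0.31 to 0.00055, limma adjusted p = 0.0791). On 201365_at it read 10.87, 10.88 and 10.92 with teriflunomide, against 10.63, 10.72 and 10.77 with DMSO. That probe set was higher, at 0.18 (SE 0.05, limma adjusted p = 0.0254 over all probe sets). The call of OAZ2 201365_at was lost with no filter (adjusted p = 0.0581), with poly-A centring (0.10, adjusted p = 0.292) and without DMSO replicate 2 or any of the teriflunomide arrays (adjusted p = 0.0567 to 0.0742). The gap between both probe sets was -0.34 (exact two-sided permutation p = 0.1, the smallest this design allows).

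AZIN1, which frees ornithine decarboxylase from antizyme, fell on both of its bright probe sets. On 212461_at it read 11.81, 11.87 and 11.90 with teriflunomide, against 12.27, 12.33 and 12.32 with DMSO. The second, 201772_at, read 10.28, 10.42 and 10.27 with teriflunomide, against 11.15, 11.46 and 11.19 with DMSO. Both separated the groups. The log2 fold changes were -0.45 (SE 0.04, limma adjusted p = 0.000314 over genes) and -0.94 (SE 0.10, adjusted p = 0.00105 over probe sets). The remaining probe set, 213747_at, lay near 3.47 on every array of both groups and showed no difference that passed (0.005, adjusted p = 0.900). The antizyme inhibitor transcript was therefore lower while that of OAZ1 was higher on the deposited scale.

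In the breakdown arm, SAT1 rose on all 3 of its probe sets and had the largest log2 fold change of the 10 members, with each gene on its brightest probe set. On 203455_s_at it read 9.42, 9.06 and 8.99 with teriflunomide, against 6.97, 6.97 and 7.03 with DMSO. On 210592_s_at it read 8.58, 8.58 and 8.41 with teriflunomide, against 6.14, 5.69 and 6.00 with DMSO. No treated array came near a DMSO array on either. The first gave a log2 fold change of 2.16 (SE 0.12, limma adjusted p = 8.99e-05), or 4.48-fold, and 0.817% of all genes rose as much or more. The second gave 2.58 (SE 0.13, adjusted p = 0.000122 over probe sets), or 5.99-fold.

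The dimmest SAT1 probe set, 213988_s_at, averaged 5.22 ± 0.36 with teriflunomide and 3.48 ± 0.31 with DMSO (SD, n = 3 each). The log2 fold change of 1.74 (SE 0.24, limma adjusted p = 0.00281) rests on dim DMSO values. When anything below log2 5 was set to 5 it became 0.27 and was not called (adjusted p = 0.278). The brighter probe sets stayed called under that setting.

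The oxidases that act after or beside SAT1 did not pass in the main tests over genes and over probe sets, though PAOX did under some alternatives. PAOX, which oxidises acetylated polyamines, had 4 tested probe sets. The brightest, 238333_s_at, read 7.20, 7.23 and 6.98 with teriflunomide, against 7.24, 7.00 and 7.04 with DMSO, and the groups overlapped. The log2 fold change stood at 0.045 (95% confidence interval -0.20 to 0.29, limma adjusted p = 0.718). A dimmer one, 50400_at, did not overlap between groups, with 6.10, 6.11 and 6.28 for teriflunomide against 5.82, 5.88 and 6.05 for DMSO, and stood at 0.25 (limma adjusted p = 0.0555 over probe sets). It was called with median centring (adjusted p = 0.0447), without DMSO replicate 3 (adjusted p = 0.0321) and with replicate number as a block (adjusted p = 0.0166). When plain-suffix probe sets were preferred, it stood for the gene and PAOX was called (limma adjusted p = 0.0462). The other PAOX probe sets stood at -0.072 and 0.063.

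SMOX, the spermine oxidase, read 6.33, 6.60 and 6.20 with teriflunomide, against 5.84, 6.16 and 6.20 with DMSO on 210357_s_at. The lowest teriflunomide array and the highest DMSO array nearly coincided. The log2 fold change was 0.31 (95% confidence interval -0.042 to 0.67, limma adjusted p = 0.109). That interval includes both 0 and the size of the ODC1 rise. Of the other SMOX probe sets, 217074_at averaged 3.12 with teriflunomide and 3.16 with DMSO, and 1555680_a_at lay at the lowest value on all 6 arrays and was not tested.

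**Figure D2:**
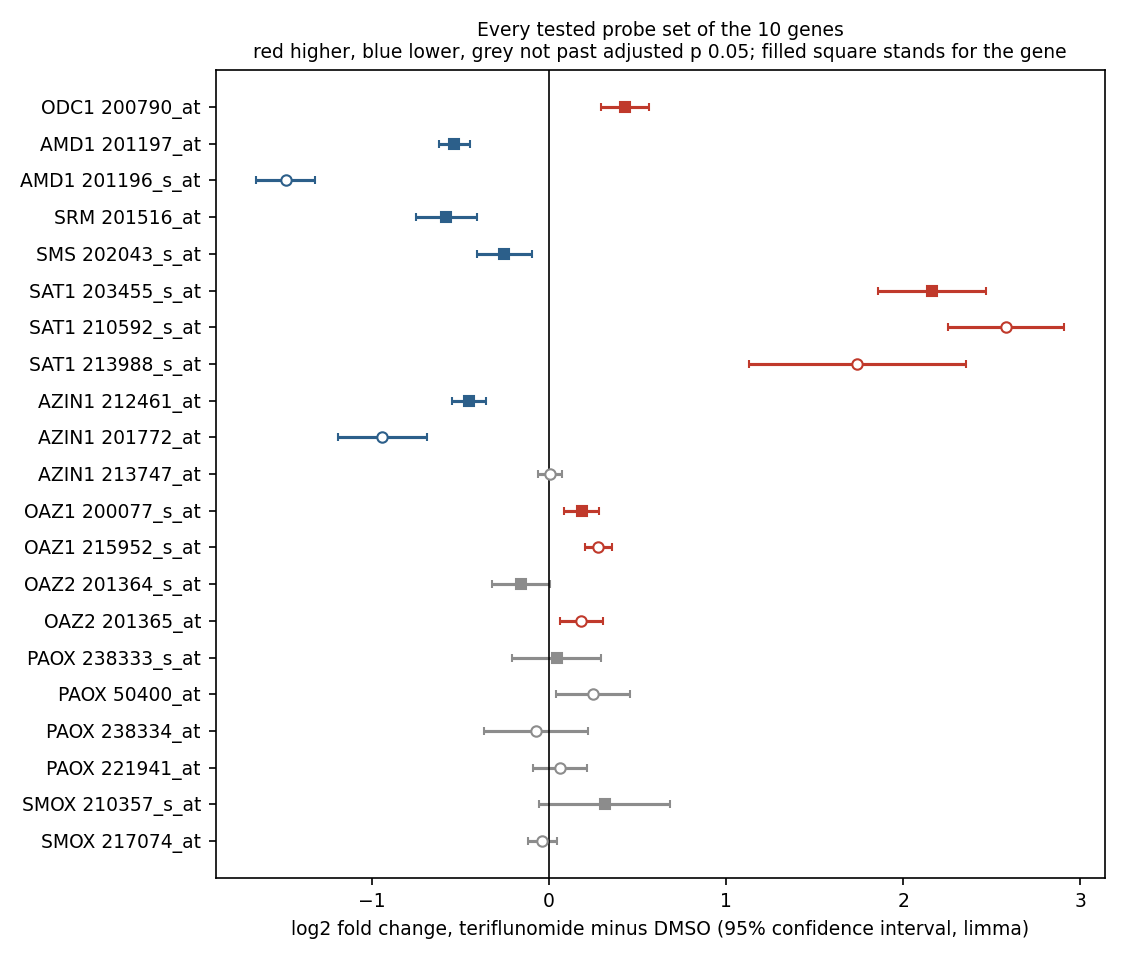
Log2 fold change, teriflunomide minus DMSO (horizontal axis), with its 95% confidence interval for each of the 21 tested probe sets of the 10 genes; filled squares stand for the gene, and red, blue and grey mark higher, lower and not past the threshold. All 3 SAT1 probe sets lie right of 1, both AMD1 probe sets lie left of 0 with separate intervals, and the OAZ2 probe sets lie on opposite sides of 0.

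Counted by probe set, 13 of the 21 tested passed, 7 higher and 6 lower, beside 48.8% of all probe sets tested, 23.7% higher and 25.2% lower. Of the 21, 16 did not overlap between the groups, beside 60% of all probe sets. Members with several tested probe sets numbered 7. For SAT1, AMD1 and OAZ1, every tested probe set was called in a single direction. For AZIN1 the probe set that did not pass was dim, and for OAZ2 the called probe set differed in sign from the one that stood for the gene, which did not pass.

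**Figure D3:**
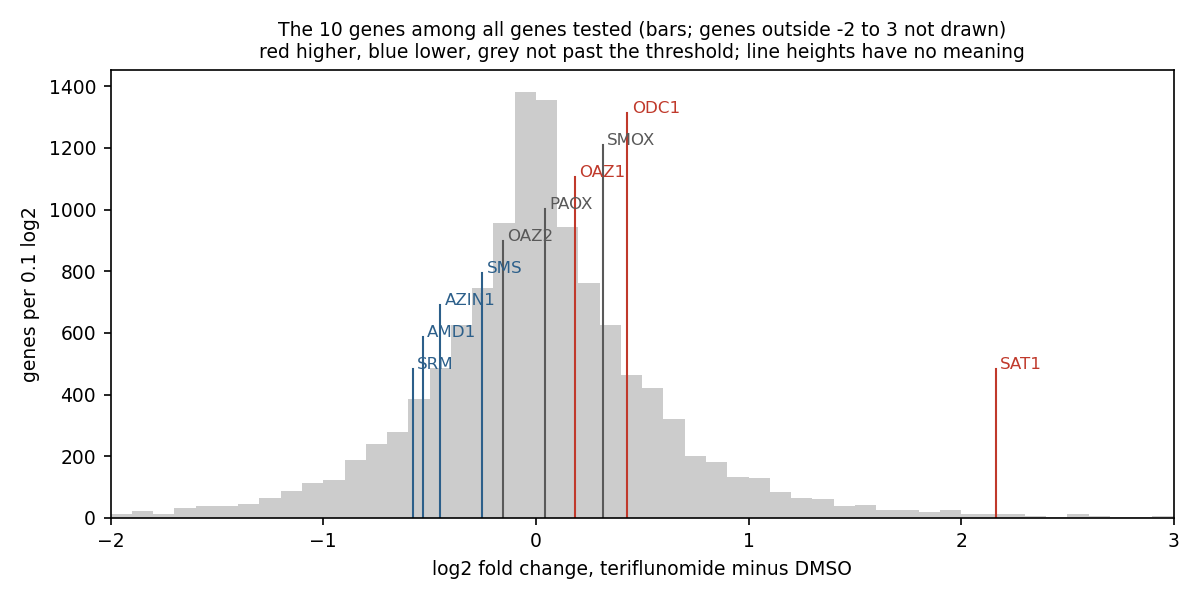
Number of genes per 0.1 log2 (vertical axis) by log2 fold change, teriflunomide minus DMSO (horizontal axis), for all genes tested, with the 10 members marked. SAT1 at 2.16 lies in the upper tail, where 0.817% of genes rose as much, while the other members lie between -0.58 and 0.43, within the bulk of all genes.

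Genes around the pathway were followed through 6 further lists of 53 genes, of which 33 were tested. Another 16 were too dim for the filter, and 4 lacked a single-symbol probe set here. Of the 33, 14 rose and 14 fell, beside 29.7% and 28.9% of all genes, and the median was 0.045 (log2) against 0.0015 for all genes. Among genes that supply ornithine and arginine, all 8 tested of 12 passed, 5 higher and 3 lower, with a median of 0.41, beside 58.6% of all genes. ARG2, the mitochondrial arginase that makes ornithine, averaged 11.98 ± 0.06 with teriflunomide and 9.07 ± 0.06 with DMSO (SD, n = 3 each). It rose by 2.92 on the log2 scale (SE 0.05, limma adjusted p = 6.97e-06), with 0.392% of all genes as high, and a dimmer ARG2 probe set gave 1.25. ASL, which releases arginine from argininosuccinate, rose by 1.40 (SE 0.04). OAT, which diverts ornithine towards glutamate and proline metabolism, changed by -0.50 (SE 0.09), and SLC7A2, a cationic amino acid transporter, by -0.78 (SE 0.07). SLC7A1, another such transporter, went the other way on the probe set that stood for it, by 0.69 (SE 0.07, limma adjusted p = 0.000755). SLC7A1 had 4 tested probe sets, and the others were not compared with this one.

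Of 11 tested genes of methionine supply and salvage, 7 were lower and 2 higher, beside 28.9% and 29.7% of all genes. Their log2 fold changes ran from -0.69 to 1.51, with a median of -0.22, and the list was not tested as a whole. The salvage route, which covers only part of this list, rebuilds methionine from methylthioadenosine, the by-product of spermidine and spermine synthesis. The other genes of the list belong to the methionine cycle. MTAP, which cleaves methylthioadenosine, changed by -0.69 (SE 0.07, limma adjusted p = 0.000661). Its 3 further tested probe sets stood between -0.53 and -0.88. The dimmest of them (mean log2 4.60), at -0.53, did not pass (limma adjusted p = 0.0833). MRI1, the next enzyme of the route, changed by -0.62 (SE 0.06). A dim MRI1 probe set (mean log2 2.97) stood at -0.026, and the mean of both gave -0.32. APIP, a dehydratase of the route, rose by 0.47 (SE 0.03), while its dim probe set, at 0.34, did not pass (adjusted p = 0.0957). GOT1, an aspartate aminotransferase with wide roles outside the route, rose by 1.51 (SE 0.06).

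Spermidine is also the substrate for hypusine, an amino acid formed only in the translation factor eIF5A. All 4 tested genes of that list passed, 2 higher and 2 lower, beside 58.6% of all genes. EIF5A, the main form of the factor, averaged 12.96 ± 0.014 with teriflunomide and 13.57 ± 0.003 with DMSO (SD, n = 3 each), a log2 fold change of -0.61 (SE 0.03, limma adjusted p = 5e-05). Its other probe sets gave -0.64 and -0.60. DHPS, which starts the modification, rose by 0.43 (SE 0.06) and by 0.39 and 0.40 on its other probe sets. DOHH, which completes it, changed by -0.62 (SE 0.16, limma adjusted p = 0.0213), a call lost with no filter and without any of 3 arrays in turn (teriflunomide replicate 2, DMSO replicate 1 or DMSO replicate 2). EIF5A2, another eIF5A gene, rose by 0.20, a call lost with the mean of its probe sets, with poly-A centring and without DMSO replicate 1. Its other probe sets stood at -0.17 and 0.078 and did not pass.

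Of the transport and uptake genes, 6 of 14 were tested, 2 were higher and 2 lower, a share near the 58.6% of all genes that passed. SLC3A2, the heavy chain of several amino acid exchangers, averaged 11.40 ± 0.13 with teriflunomide and 8.84 ± 0.02 with DMSO (SD, n = 3 each). It rose by 2.57 (SE 0.07, limma adjusted p = 2.25e-05). SLC47A1, an organic cation exporter, rose by 0.36 (SE 0.09), a call lost with no filter and without DMSO replicate 2 or 3. ATP13A3, a polyamine transporting ATPase, changed by -0.45 (SE 0.07), while its other probe set, at -0.35, did not pass (adjusted p = 0.121). GPC1, the proteoglycan glypican-1, changed by -0.49 (SE 0.09).

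Of the remaining lists, 1 of 2 tested paralogs was higher: SAT2, a relative of SAT1, rose by 0.61 (SE 0.08, limma adjusted p = 0.00159), while AZIN2 stood at 0.045. Both tested genes of aldehyde and diamine oxidation were higher, beside 29.7% of all genes, ALDH2 by 0.66 (SE 0.05) and ALDH9A1 by 0.19 (SE 0.04), the second of these not called with poly-A centring (0.11). The diamine oxidase gene AOC1 lay below the filter.

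**Figure D4:**
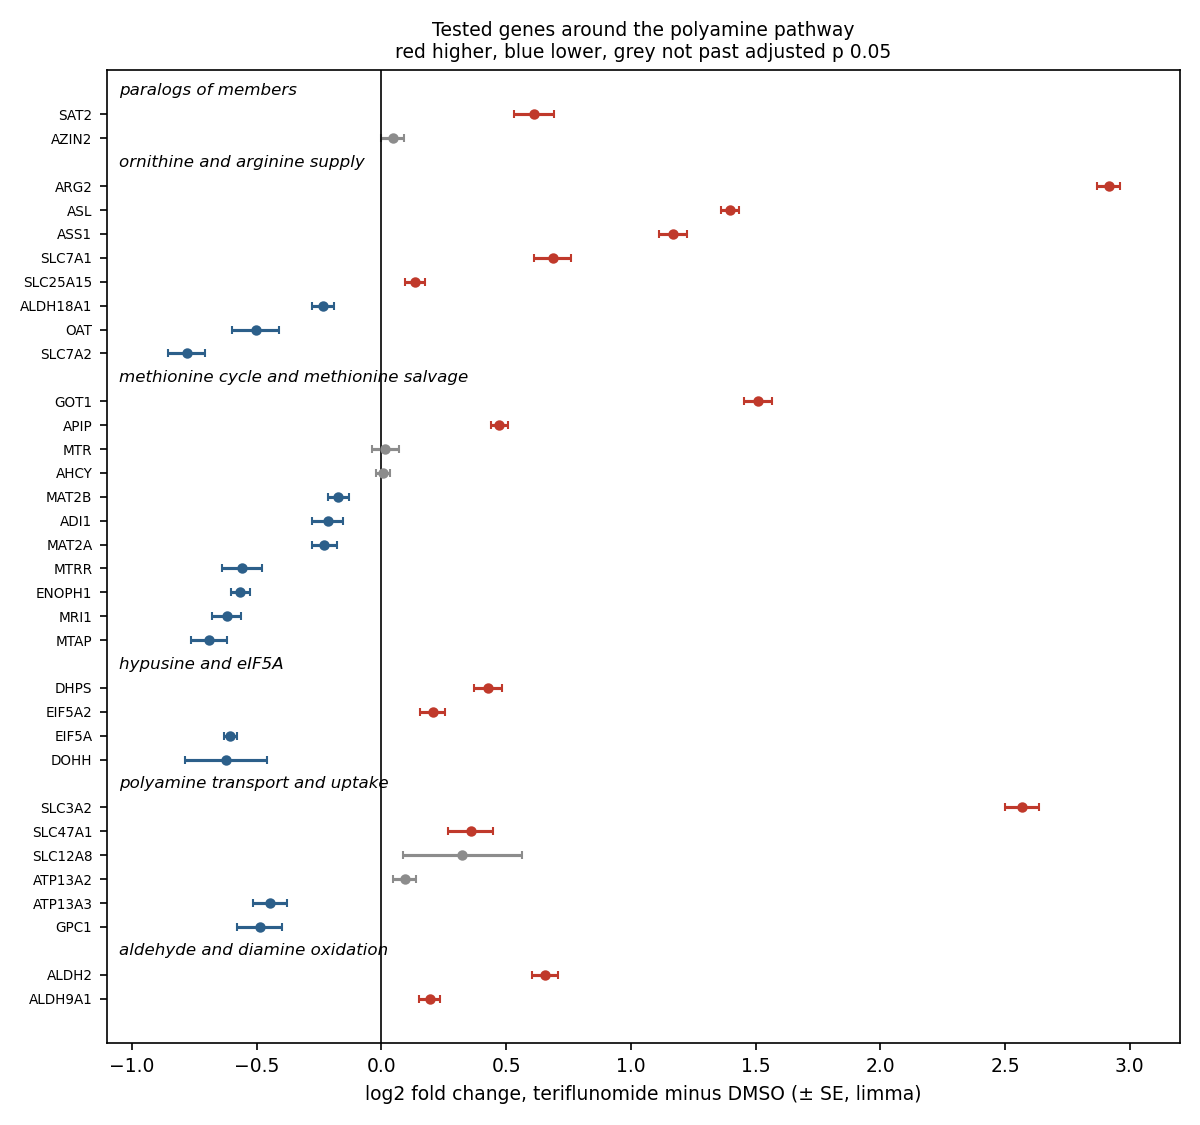
Log2 fold change, teriflunomide minus DMSO, with limma's SE (horizontal axis) for the 33 tested genes of the 6 surrounding lists; red, blue and grey mark higher, lower and not past the threshold. ARG2 at 2.92 and SLC3A2 at 2.57 lie furthest right, and 7 of the 11 methionine genes lie left of 0 in blue.

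A sign of RNA or target length moved with treatment beside all of these results. The ACTB 3′ minus 5′ probe set difference was 1.55, 1.63 and 1.68 on the teriflunomide arrays, against 1.36, 1.39 and 1.32 on the DMSO arrays (exact two-sided permutation p = 0.1, as low as 3 against 3 can reach). The GAPDH mean difference was 0.063 with teriflunomide and 0.049 with DMSO (exact permutation p = 0.4). Their part in the results was not tested.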

How the data were processed

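The authors deposited log2 expression intensities made with GCRMA, per the submitters' processing notes; neither version nor settings were stated. GCRMA models background from probe sequence and equalises the distributions of the arrays; a shift shared by all genes would not show. No further normalization was applied. Gene symbols came from the platform annotation: of 54675 probe sets, 41097 had 1 symbol, 1801 several and 11777 none, and the 62 controls were left out of tests. Of the single-symbol probe sets, 41043 matched the GRCh38.p14 gene table and 0 symbols needed updating. Teriflunomide minus DMSO was fitted with limma 3.58.1 (R 4.3.3; lmFit and eBayes, 6 arrays, no covariates), two-sided, with Benjamini-Hochberg adjustment over the 11998 genes or the 27290 probe sets tested. The fit was tested on simulated data. Python 3.11.15 drew the figures and searched promoters. Arrays give no read depth; their number limits precision.

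The members, lists and settings were chosen with earlier results of these data known. All 10 members are named; from each other list, the 2 called genes with the largest rise and the 2 with the largest fall whose arrays did not overlap are named, and MYCN. AZIN2, AOC1, SLC7A1 and the marker genes are named outside that rule, after their values were seen. The alternatives were other filters, a floor, other probe set choices, other scalings, other variance models, a block for replicate number, array weights and omission of each array.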

Additional observations from a re-analysis of the deposited data

How the results depend on the processing

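Across 17 alternatives, 5 of the 7 called members (ODC1, AMD1, SRM, SAT1 and AZIN1) stayed past the threshold in every run over genes. In those runs SMS lost its call without teriflunomide replicate 2 and OAZ1 with poly-A centring. The number of members called ranged from 6 to 9, and leaving out each array in turn gave 6 to 8. Preferring plain-suffix probe sets gave 5 higher members in place of 3, since it put OAZ2 at 0.18 and PAOX at 0.25, both called, and SMOX on a dim probe set at -0.036. The mean of its probe sets put OAZ2 at 0.013, and the OAZ2 call at -0.16 was gained with the 75th percentile filter (adjusted p = 0.0494) and, at -0.21, without teriflunomide replicate 1. Values close to 0 turned sign without passing: with poly-A centring, PAOX and its probe set 238333_s_at stood at -0.037, PAOX 221941_at at -0.019 and AZIN1 213747_at at -0.077. Leaving out each array in turn gave AZIN1 213747_at between -0.0029 and 0.010, PAOX (238333_s_at) between -0.0031 and 0.12, with -0.0016 without teriflunomide replicate 2, and PAOX 238334_at between -0.16 and 0.053. The cause was not tested. Poly-A centring lowered the share of higher genes among those called to 40.9%, against 50.6% on the deposited scale. Dim probe sets near the lowest value limit what SMOX, PAOX and the dim AZIN1 probe set can show.

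The labels state no pairing of the replicate numbers, so the main fit had no block. For same-numbered arrays, the correlations of their deviations from the group means were 0.128, 0.152 and -0.045. Teriflunomide replicates 1 and 2 correlated best with the DMSO array of their own number, and replicate 3 with DMSO replicate 2 (0.0365). With 3 arrays per group and correlations this small, the check cannot settle whether the numbers mark pairs. With the replicate number as a block, 7 members, 26 genes of the surrounding lists (28 without it) and 6641 of all genes (7031 without it) were called, and 12 of the members' probe sets (13 without it). With the block, DOHH (adjusted p = 0.0711), SMS 202043_s_at (0.0667 over probe sets) and OAZ1 200077_s_at (0.0573) were not called, and PAOX 50400_at was (0.0166).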

Other observations

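A further probe set that the annotation gives to both ZSWIM8 and SAT1 was left out of the tests, since it carries several symbols. Its mean was 2.18, the array minimum, with teriflunomide and with DMSO alike.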
